A study of Homo sapiens with 8 samples.

Results

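Arachidonic acid, a fatty acid held in membrane phospholipids, is the source of leukotrienes and prostaglandins, lipid mediators through which neutrophils attract and activate other leukocytes. RNA of 10 genes of this route was examined in NB4 cells, an acute promyelocytic leukemia line that carries the PML/RARα fusion and matures towards granulocytes with all-trans retinoic acid (ATRA). The 10 genes were chosen by their role, with earlier results of these same data in view and with no threshold on a measured value, out of 37526 gene names common to all 8 libraries. Their values are therefore given as a description, and where members are counted at the thresholds of the study, which include a P-value, the counts are no test of the list.

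The cytosolic phospholipase PLA2G4A frees arachidonic acid from the membrane. ALOX5, helped by its membrane partner ALOX5AP, turns it into leukotriene A4, from which LTA4H makes leukotriene B4 and LTC4S makes leukotriene C4. Leukotriene B4 acts on the receptor LTB4R and is inactivated by the omega-hydroxylase CYP4F3. In the other branch, the cyclooxygenases PTGS1 and PTGS2 make prostaglandin H2, and PTGES turns that into prostaglandin E2. Leukotriene B4 is a classical product and attractant of neutrophils.

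The cells were cultures of the NB4 line with stably integrated vectors, in 4 groups of 2 libraries. The control, shNC, is labelled as carrying the empty shRNA vector, whereas the methods of the study describe a scrambled shRNA. The shKDM3B cells carry an shRNA against KDM3B, an H3K9 demethylase, and the hairpin used for RNA-seq is not named. Both were sequenced without ATRA (shNC and shKDM3B, undifferentiated) and after 1 µM ATRA (shNC_ATRA and shKDM3B_ATRA, differentiated). The labels name 24 and 48 hours of ATRA without saying which the libraries had. They do not say whether replicates were separate cultures, so the errors cover only the spread between these libraries, which may be technical.

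Each library had from 9708739 to 33017787 read pairs counted on the genes. Levels are normalised read counts expressed as CPM (counts per 1000000 counted read pairs), scaled by the TMM method over all 8 libraries. KDM3B was 187 and 188 CPM in shNC, 76.3 and 86.2 in shKDM3B, 196 and 121 in shNC_ATRA and 52.5 and 57.4 in shKDM3B_ATRA. It was lower in shKDM3B by a log2 fold change of -1.21 (SE 0.15, edgeR adjusted p = 0.0680) without ATRA and of -1.53 (SE 0.29, edgeR adjusted p = 0.502) with ATRA. One library stood apart from its group. Of the uniquely aligned read pairs, 50.02% lay outside annotated genes in shNC_ATRA replicate 2 and 51.4% and 51.0% in the shKDM3B_ATRA libraries, but 9.36% in shNC_ATRA replicate 1 and 8.49% to 9.62% without ATRA. The comparison of the treated groups is therefore also given without shNC_ATRA replicate 1, which leaves libraries with a like share. The member values of shNC_ATRA against shNC are also given without shNC_ATRA replicate 2, for the same reason. Where 1 of the 4 libraries of a comparison is left out, its group keeps a single library, which is assumed to vary like the other group. The spread between libraries then comes from that group alone, so a smaller SE there does not make a difference firmer, and a call that is kept is no measure of stability. In the comparison of shKDM3B_ATRA with shKDM3B, ATRA and this share cannot be told apart. The 5 promyelocyte markers summed to 4389 to 5460 CPM in shNC, 8490 to 9645 in shKDM3B, 619 to 734 in shNC_ATRA and 2223 to 3132 in shKDM3B_ATRA. Nearly all of this sum was MPO, with ELANE, PRTN3 and AZU1 at 1.47 CPM or less in each library. CTSG stood at 105 and 115 CPM in shNC, 149 and 127 in shKDM3B, 4.11 and 2.31 in shNC_ATRA and 2.001 and 1.71 in shKDM3B_ATRA. The 5 mature neutrophil markers summed to 145 to 146 CPM in shNC, 85.2 to 91.7 in shKDM3B, 423 to 513 in shNC_ATRA and 260 to 263 in shKDM3B_ATRA, although FCGR3B had at most 3 counts in every library and MMP9 was lower with ATRA, at 52.2 and 50.6 CPM in shNC and 1.84 and 1.75 in shNC_ATRA.

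The sequences before the start sites of 4 genes are shown because these genes had the largest or most divergent differences with ATRA. RefSeq promoter windows on GRCh38.p14 were matched for 9 of the 10 genes, in 10 windows, and the 250 bases upstream of the start site were searched on both strands for AGGTCA (the retinoid receptor half-site), GAGGAA (the core bound by PU.1) and TGANTCA (the AP-1 motif), whose letters do not overlap one another in these windows. Capitals mark a match, which on the opposite strand reads as its reverse complement, and sequences run 5′ to 3′ on the strand of the gene.
ALOX5AP, chr13:30713235-30713484, plus strand: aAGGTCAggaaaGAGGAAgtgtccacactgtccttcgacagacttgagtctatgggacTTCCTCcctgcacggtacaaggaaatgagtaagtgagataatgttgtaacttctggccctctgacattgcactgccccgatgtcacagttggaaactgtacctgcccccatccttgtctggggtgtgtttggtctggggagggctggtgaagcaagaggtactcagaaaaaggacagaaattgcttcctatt
CYP4F3, chr19:15641062-15641311, plus strand: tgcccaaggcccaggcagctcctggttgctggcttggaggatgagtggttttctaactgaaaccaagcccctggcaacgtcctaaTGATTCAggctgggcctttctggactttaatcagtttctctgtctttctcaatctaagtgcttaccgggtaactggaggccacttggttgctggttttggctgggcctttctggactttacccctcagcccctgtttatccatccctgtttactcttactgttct
LTC4S, chr5:179793736-179793985, plus strand: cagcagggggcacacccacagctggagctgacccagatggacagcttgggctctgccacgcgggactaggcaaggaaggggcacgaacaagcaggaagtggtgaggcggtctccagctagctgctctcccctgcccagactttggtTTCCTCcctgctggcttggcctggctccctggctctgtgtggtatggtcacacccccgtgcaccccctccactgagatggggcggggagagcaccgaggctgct
PTGES, chr9:129753043-129753292, minus strand: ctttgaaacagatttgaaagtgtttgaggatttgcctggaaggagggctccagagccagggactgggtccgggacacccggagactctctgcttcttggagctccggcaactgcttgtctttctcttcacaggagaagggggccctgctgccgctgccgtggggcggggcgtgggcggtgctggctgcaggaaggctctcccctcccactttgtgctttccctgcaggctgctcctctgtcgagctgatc
AGGTCA was found in 1 of the 10 windows, in ALOX5AP 249 bases before the start site, and in 12.1% of 35116 windows of this length. GAGGAA was found in 2 windows, those of ALOX5AP and LTC4S, and in 23.6% of all windows. TGANTCA was found in 1 window, that of CYP4F3, and in 6.57% of all windows. The PTGES window held none of these letters. Start sites in these windows are those of RefSeq. The windows of CYP4F3, LTA4H, LTB4R and PTGS2, and 1 window of PTGS1, lie wholly inside the GENCODE gene spans given below. The matches describe the letters alone.

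ALOX5AP, the partner that presents arachidonic acid to the 5-lipoxygenase, was the most abundant measured member per kilobase of exon after ATRA. ALOX5AP lies on chr13:30713478-30764426 of hg38. It stood at 3.56 and 4.62 CPM in shNC, 1.08 and 1.87 in shKDM3B, 1174 and 1398 in shNC_ATRA and 637 and 840 in shKDM3B_ATRA. Both ATRA groups lay far above both untreated groups, and the knockdown libraries lay below their controls without and with ATRA, with no overlap. With ATRA, the log2 fold change was 8.33 (SE 0.31) in shNC cells and 8.95 (SE 0.27) in shKDM3B cells. With the knockdown it was -1.44 (SE 0.38) without ATRA and -0.80 (SE 0.21) with ATRA, and -0.91 (SE 0.10) with ATRA when shNC_ATRA replicate 1 was left out.

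CYP4F3, which inactivates leukotriene B4 (chr19:15640897-15662825), had the largest difference of the members between knockdown and control cells under ATRA. Its counts were 19 and 7 in shNC and 9 and 10 in shKDM3B, against 1945 and 1714 in shNC_ATRA and 148 and 169 in shKDM3B_ATRA. In CPM these were 0.954 and 0.294, 0.462 and 0.307, 119 and 158, and 15.6 and 17.0. It had at most 19 counts in any untreated library, with the shKDM3B_ATRA libraries well below those of shNC_ATRA. With ATRA the log2 fold change was 7.86 (SE 0.50) in shNC cells and 5.48 (SE 0.33) in shKDM3B cells. In shKDM3B_ATRA it was 8.48-fold lower than in shNC_ATRA (log2 fold change -3.08, SE 0.20), and -3.27 (SE 0.15) without shNC_ATRA replicate 1. Without ATRA the value of -0.70 (SE 0.69) rested on few counts and was 0.35 without shNC replicate 1. Of the 50-base stretches of its canonical transcript, 10.1% also occur in transcripts of other genes, among them CYP4F2, CYP4F11 and CYP4F12, so part of its reads could be divided between copies.

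PTGES, the inducible terminal synthase of prostaglandin E2 (chr9:129738331-129753042), was counted only in treated libraries. It had 0 counts in the 4 untreated libraries, where 0 allows up to 3 counts per library, a limit of counting error alone. With ATRA it reached 75.7 and 93.6 CPM in shNC_ATRA and 25.3 and 50.6 in shKDM3B_ATRA. The treated groups did not overlap, and the lower knockdown library was at about the distance from the higher one that the higher one was from the control. Against the floor of 3 counts per library, PTGES was at least 612-fold higher with ATRA in shNC cells and at least 308-fold higher in shKDM3B cells. The log2 fold change of shKDM3B_ATRA against shNC_ATRA was -1.15 (SE 0.40), and it was -1.29 without shNC_ATRA replicate 1, -0.73 without shKDM3B_ATRA replicate 1 and -1.73 without shKDM3B_ATRA replicate 2.

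**Figure D1:**
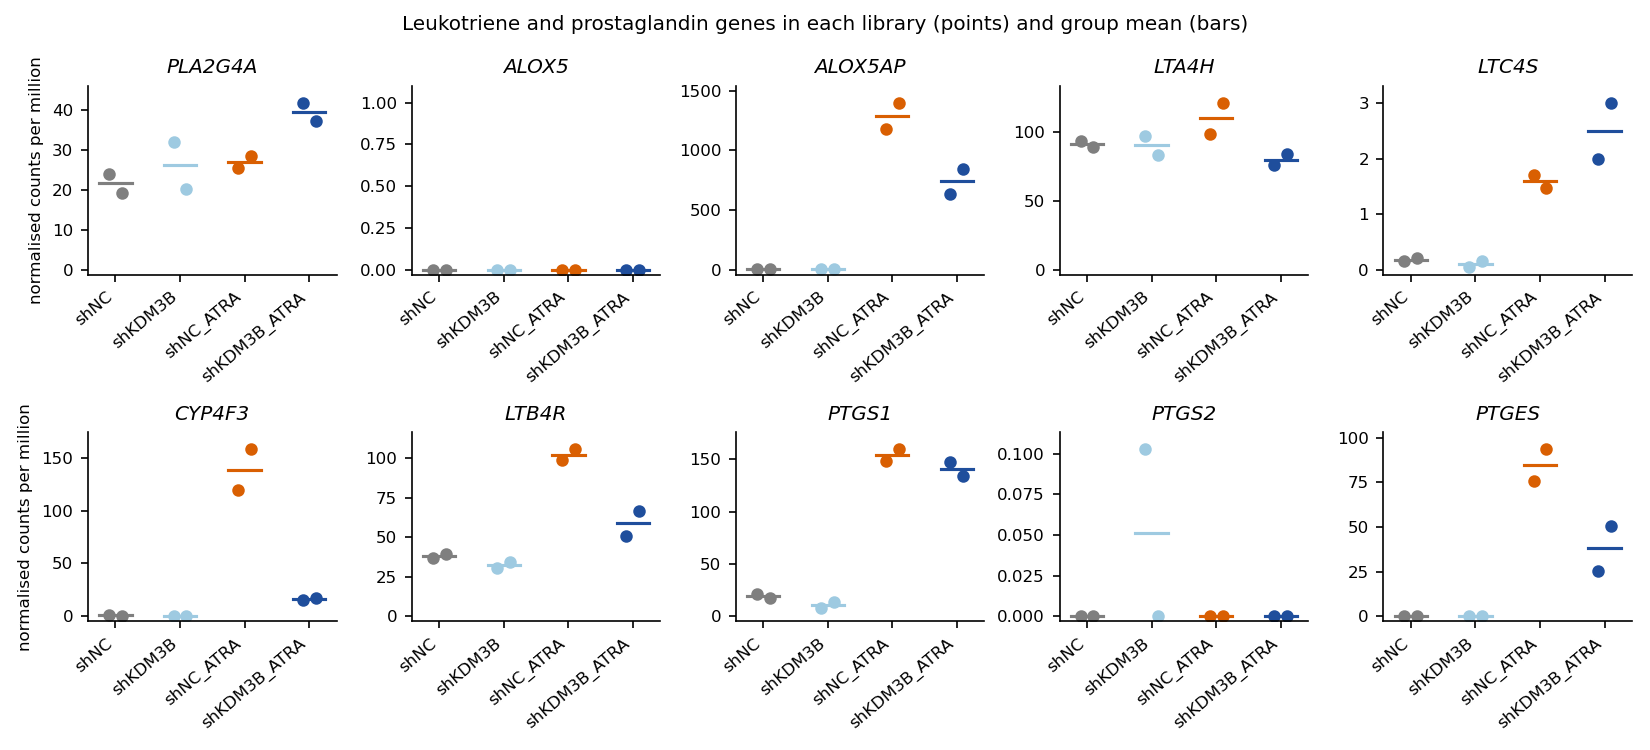
Normalised CPM (vertical axes, each with its own linear scale from 0) of the 10 genes in each library (points), with the mean of each group of 2 libraries (bars). ALOX5AP, CYP4F3 and PTGES were near 0 without ATRA and lower in shKDM3B_ATRA than in shNC_ATRA, ALOX5 was listed at 0 throughout, and the single PTGS2 point above 0 stands for 2 counts.

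LTB4R, the high-affinity receptor of leukotriene B4 (chr14:24311450-24318036), was already present without ATRA. It stood at 36.6 and 39.5 CPM in shNC, 30.5 and 34.0 in shKDM3B, 98.8 and 106 in shNC_ATRA and 50.6 and 66.9 in shKDM3B_ATRA. The shKDM3B_ATRA libraries lay between the untreated libraries and those of shNC_ATRA. The log2 fold change with ATRA was 1.46 (SE 0.21) in shNC cells and 0.92 (SE 0.17) in shKDM3B cells, and with the knockdown it was -0.24 (SE 0.17) without ATRA and -0.80 (SE 0.19) with ATRA. Without shNC_ATRA replicate 1 the last value was -0.84 (SE 0.14). LTB4R shares 7.95% of its exon length with LTB4R2, the low-affinity receptor, on the same strand. LTB4R2 stood at 6.46 to 13.5 CPM in the 8 libraries.

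PTGS1, the constitutive cyclooxygenase (chr9:122370530-122395703), was lower in knockdown cells without ATRA and nearly level between the treated groups. It stood at 21.1 and 17.8 CPM in shNC, 8.01 and 13.5 in shKDM3B, 148 and 160 in shNC_ATRA and 147 and 134 in shKDM3B_ATRA. Treated libraries of both kinds lay above every untreated library. The log2 fold change with ATRA was 3.02 (SE 0.23) in shNC cells and 3.74 (SE 0.23) in shKDM3B cells. With the knockdown it was -0.85 (SE 0.28) without ATRA, or -0.53 without shKDM3B replicate 1, and -0.13 (SE 0.12) with ATRA, or -0.17 (SE 0.13) without shNC_ATRA replicate 1. Platelets also hold PTGS1. The 5 megakaryocyte and platelet markers, with PF4 and GP9 at 0 in each library, summed to 7.64 to 7.83 CPM in shNC, 1.80 to 3.62 in shKDM3B, 4.84 to 4.98 in shNC_ATRA and 3.48 to 4.92 in shKDM3B_ATRA, and so were also lower in knockdown cells without ATRA. Without ATRA most of this sum was ITGA2B, at 7.78 and 7.59 CPM in shNC and 1.75 and 3.56 in shKDM3B. In shKDM3B_ATRA it was shared by ITGA2B, at 1.69 and 2.71 CPM, and GP1BA, at 1.79 and 1.91, whereas GP1BA was at 0 and 0.369 in shNC_ATRA. The part of such cells in the PTGS1 values was not tested.

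LTC4S, the leukotriene C4 synthase (chr5:179793980-179796647), rested on few counts. It had 3 and 5 counts in shNC, 1 and 5 in shKDM3B, 28 and 16 in shNC_ATRA and 19 and 30 in shKDM3B_ATRA, which corresponds to 0.151 and 0.210, 0.0514 and 0.153, 1.72 and 1.48, and 2.001 and 3.01 CPM. Every treated library lay above every untreated one, and unlike the members above, the shKDM3B_ATRA libraries lay above those of shNC_ATRA. The log2 fold change with ATRA was 3.12 (SE 0.61) in shNC cells and 4.44 (SE 0.56) in shKDM3B cells. That of shKDM3B_ATRA against shNC_ATRA was 0.65 (SE 0.43). It was 0.77 without shNC_ATRA replicate 1, 0.33 without shKDM3B_ATRA replicate 2 and 0.92 without shKDM3B_ATRA replicate 1. LTC4S is also made by mast cells, basophils and eosinophils. The summed level of the 6 markers of these cells was lower with ATRA, at 346 to 608 CPM in shNC, 171 to 298 in shKDM3B, 35.1 to 54.9 in shNC_ATRA and 5.90 to 18.5 in shKDM3B_ATRA, with TPSAB1 at 0 in both treated groups. This was carried by HDC, at 198 and 323 CPM in shNC and 12.4 and 11.8 in shNC_ATRA, and by EPX, at 145 and 282 and at 13.8 and 12.6. CLC, a granule protein of eosinophils and basophils, was higher with ATRA like LTC4S, at 0.251 and 0.587 CPM in shNC, 0.206 and 0.123 in shKDM3B, 8.34 and 30.2 in shNC_ATRA and 3.05 and 6.73 in shKDM3B_ATRA. The part of such cells in the LTC4S values was not tested.

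PLA2G4A and LTA4H, the enzymes that release arachidonic acid and hydrolyse leukotriene A4, had the smallest differences with ATRA. PLA2G4A (chr1:186828949-186988981) stood at 23.9 and 19.2 CPM in shNC, 32.0 and 20.1 in shKDM3B, 25.5 and 28.5 in shNC_ATRA and 41.7 and 37.2 in shKDM3B_ATRA. Its highest libraries were those of shKDM3B_ATRA, which did not overlap with any other group. The log2 fold change was 0.55 (SE 0.17) for shKDM3B_ATRA against shNC_ATRA (0.48, SE 0.17, without shNC_ATRA replicate 1), 0.66 (SE 0.22) for ATRA in shKDM3B cells, 0.36 (SE 0.24) for ATRA in shNC cells and 0.27 (SE 0.25) for the knockdown without ATRA. The last value was -0.10 without shKDM3B replicate 1 and 0.56 without shKDM3B replicate 2. LTA4H (chr12:96000753-96043520) stood at 93.6 and 89.1, 97.2 and 83.3, 98.8 and 121, and 75.7 and 84.1 CPM in the same order of groups. It was the most abundant member per kilobase of exon without ATRA. Its log2 fold change was 0.30 (SE 0.21) with ATRA in shNC cells, -0.12 (SE 0.14) with ATRA in shKDM3B cells, -0.02 (SE 0.15) with the knockdown alone and -0.46 (SE 0.16) with the knockdown under ATRA, or -0.59 (SE 0.13) without shNC_ATRA replicate 1. The value with the knockdown alone was -0.13 without shKDM3B replicate 1 and 0.08 without shKDM3B replicate 2. Genes on the opposite strand cover 12.5% of the exon length of LTA4H, and the library kit is not stated to keep strand.

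ALOX5, the 5-lipoxygenase at the head of the leukotriene branch (chr10:45374176-45446119), was listed at 0 in all 8 libraries, and this cannot be read as absence of the RNA. Of the 50-base stretches of its canonical transcript, 75.4% also occur on an alternate sequence of chromosome 10 in hg38, and reads that align in both places are not assigned to a gene by unique counting. TUBB and CSNK2B, genes of tubulin and of a kinase subunit that every cell uses, were picked after their values were seen and had 0 to 4 counts each, with 94.4% and 67.8% of their stretches on alternate sequences, whereas GAPDH, with 0 such stretches, had 29454 to 164589 counts. Such stretches did not always go with 0 counts. ABCC1 and MBOAT7 of the wider pathway, with 75.4% and 84.3% of their stretches on alternate sequences, had 124 to 424 and 26 to 84 counts. Whether the authors' index held alternate sequences is not given in the sources used here, and its part in the 0 was not tested. PTGS2, the inducible cyclooxygenase (chr1:186671791-186680922), had 2 counts in shKDM3B replicate 1 and 0 in the other libraries, and 0 of its stretches occur on such sequences. Its limit of 3 counts corresponds to 0.0920 to 0.316 CPM per library, so no fold change is given.

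Per kilobase of exon, LTA4H led in shNC with 12.3 ± 0.430 CPM (SD, n = 2), followed by LTB4R with 8.53 ± 0.449 and PLA2G4A with 7.49 ± 1.15, and the spreads of LTB4R and PLA2G4A overlapped. PTGS1 followed with 3.37 ± 0.409 and ALOX5AP with 2.43 ± 0.442, and LTC4S and CYP4F3 were at 0.151 ± 0.0351 and 0.113 ± 0.0846, whose spreads overlapped. With ATRA the order in shNC_ATRA was headed by ALOX5AP with 766 ± 94.3 CPM per kilobase, then PTGES with 44.8 ± 6.70, PTGS1 with 26.6 ± 1.39, CYP4F3 with 25.1 ± 4.98 and LTB4R with 22.9 ± 1.12. The neighbours PTGS1 and CYP4F3, and CYP4F3 and LTB4R, did not differ beyond their spread. LTA4H, PLA2G4A and LTC4S followed with 14.9 ± 2.15, 9.38 ± 0.737 and 1.34 ± 0.143. In shKDM3B the order was LTA4H with 12.2 ± 1.33, PLA2G4A with 9.04 ± 2.91, LTB4R with 7.22 ± 0.564, PTGS1 with 1.86 ± 0.667 and ALOX5AP with 0.878 ± 0.334, and the spreads of LTA4H and PLA2G4A, of PLA2G4A and LTB4R and of PTGS1 and ALOX5AP overlapped. In shKDM3B_ATRA, ALOX5AP again stood first with 439 ± 85.5, while CYP4F3 stood in seventh place among the members with 2.95 ± 0.179, above LTC4S with 2.10 ± 0.601. Between them came PTGS1 with 24.3 ± 1.64, PTGES with 20.1 ± 9.49, PLA2G4A with 13.7 ± 1.11, LTB4R with 13.2 ± 2.59 and LTA4H with 10.8 ± 0.800, each of which overlapped with the next in spread.

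**Figure D2:**
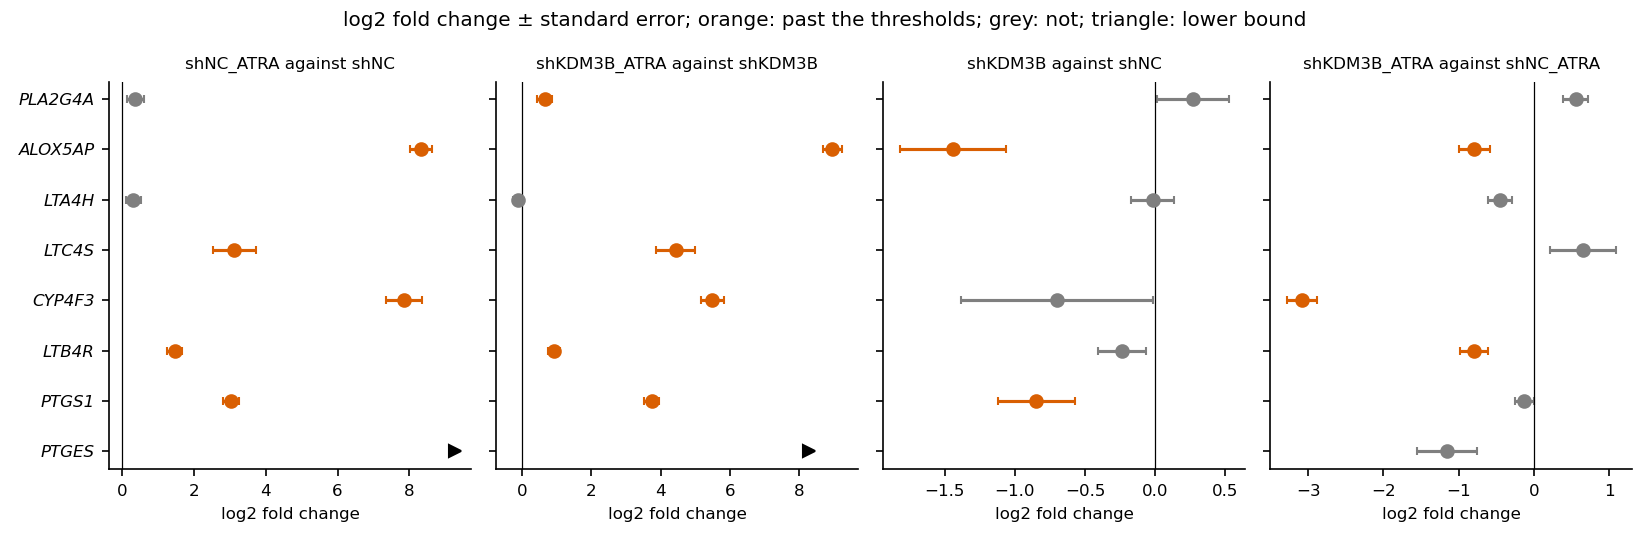
Log2 fold change with its standard error (horizontal axes, a separate scale in each panel) of the 8 measured genes in the 4 comparisons, from edgeR. Orange points passed an unadjusted P-value of 0.05 and a 1.5-fold change, grey points did not, and triangles mark the lower bounds of PTGES. CYP4F3 had the lowest value with the knockdown under ATRA, and PTGS1, level there, was lower without ATRA.

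The thresholds of the study, an unadjusted P-value under 0.05 and a change of at least 1.5-fold, were applied to all genes that passed a low-count filter. With ATRA in shNC cells, 6 of the 8 members that passed the filter were called higher (ALOX5AP, CYP4F3, LTC4S, LTB4R, PTGS1 and PTGES), against 15% of all genes. The same 6 genes were called with each library left out and under every alternative run. Without shNC_ATRA replicate 2 the log2 fold change was 8.16 for ALOX5AP, 7.62 for CYP4F3, 3.20 for LTC4S, 1.38 for LTB4R, 2.94 for PTGS1, 0.25 for PLA2G4A and 0.12 for LTA4H. In shKDM3B cells 7 of 8 were called higher, PLA2G4A being the added one, against 24% of all genes. The call of PLA2G4A was lost without shKDM3B replicate 2 or shKDM3B_ATRA replicate 1. Its log2 fold change there was 0.36 without shKDM3B replicate 2 and 0.97 without shKDM3B replicate 1. With the knockdown, ALOX5AP and PTGS1 were called lower without ATRA, 2 of 6, against 3.53% of all genes. With the knockdown under ATRA, CYP4F3, ALOX5AP and LTB4R were called lower, 3 of 8, against 4.37% of all genes. PTGES was not among them, although it was called lower by DESeq2 and when either shNC_ATRA library was left out. Libraries of the 2 groups did not overlap in 8 of 8 and 7 of 8 members, all higher, with ATRA (29% and 40.9% of all genes), in 3 of 6, all lower, with the knockdown alone (19.5%), and in 6 lower and 2 higher of 8 with the knockdown under ATRA (23.5% and 26.1%). Nothing is read from these counts, since the list was drawn up with these results in view and a gene high in 1 group passes the filter through that group. The median log2 fold change of the members that passed was 3.07, 4.09, -0.47 and -0.63 in these comparisons, against 0.02, 0.04, 0.00 and 0.03 over all genes.

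With the knockdown under ATRA, single libraries moved the count. ALOX5AP and LTB4R were no longer called without shKDM3B_ATRA replicate 1, which left CYP4F3 alone, and 0.624% of all genes were called lower in that setting. Without shNC_ATRA replicate 1, PTGES and LTA4H were called lower as well, against 8.19% of all genes. Without shNC_ATRA replicate 2, PTGES was called lower and PLA2G4A higher, in a setting in which 13.3% of all genes were called lower and 23.2% higher. CYP4F3 passed the thresholds whichever library was omitted, with log2 fold changes from -3.27 to -2.87, each time with 1 group of a single library. At an adjusted p under 0.05, edgeR called 0 of the members and 0 of 14281 genes in this comparison, where 5 members and 1383 genes had an unadjusted p under 0.05, and DESeq2 called 3 members. Without ATRA, PTGS1 was no longer called when shKDM3B replicate 1 was left out.

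**Figure D3:**
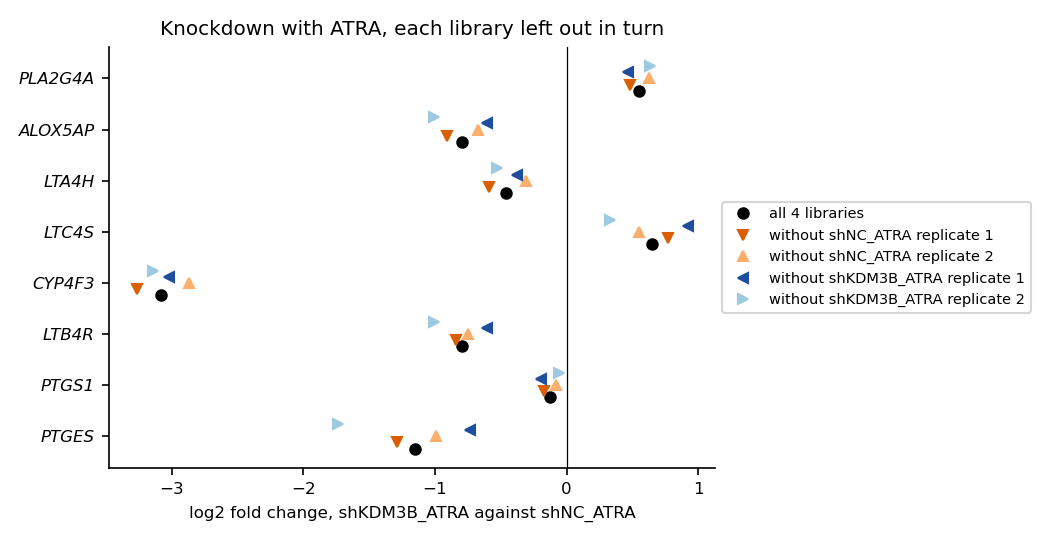
Log2 fold change of shKDM3B_ATRA against shNC_ATRA (horizontal axis) of the 8 measured genes, with all 4 libraries (black) and with each library left out in turn (colours). CYP4F3 stayed between -3.27 and -2.87, whereas PTGES moved between -1.73 and -0.73.

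The ATRA response of each member was also compared between knockdown and control cells, as the difference of the 2 log2 fold changes over all 8 libraries. It was -2.39 (SE 0.66) for CYP4F3, the member called lower, against 2.72% of 13528 genes. Without shNC replicate 1 it was -3.42, and without shNC replicate 2 it was -1.75. It was 0.71 (SE 0.34) for PTGS1, 0.63 (SE 0.38) for ALOX5AP, -0.56 (SE 0.24) for LTB4R, -0.44 (SE 0.23) for LTA4H, 1.34 (SE 0.89) for LTC4S and 0.28 (SE 0.34) for PLA2G4A, none of them called. These values moved with single libraries. With each library left out in turn, PTGS1 ranged from 0.40 to 1.20, ALOX5AP from 0.33 to 1.17, LTC4S from 0.89 to 2.37 and PLA2G4A from 0.03 to 0.65, each between the settings without shKDM3B replicate 1 and without shKDM3B replicate 2. LTB4R ranged from -0.78 to -0.34, without shKDM3B_ATRA replicate 2 and replicate 1. PTGS1 and ALOX5AP were called higher without shKDM3B replicate 2, and LTB4R was called lower without shNC_ATRA replicate 1 or shKDM3B_ATRA replicate 2. At an adjusted p under 0.05, neither edgeR nor DESeq2 called a member for this difference. PTGES, at 0 in both untreated groups, could not be given a value. ALOX5AP was thus lower with the knockdown on both sides of the treatment, while its fold change with ATRA was not smaller in shKDM3B cells. The comparison of the treated groups and that of ATRA in shNC cells share the shNC_ATRA libraries. The high share of reads outside genes held in both shKDM3B_ATRA libraries but in 1 of the 2 shNC_ATRA libraries. This share and the knockdown therefore cannot be fully told apart in the difference in response.

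A further 57 genes of eicosanoid metabolism give the surroundings of the members. They were listed by their textbook role, with earlier results of these data known, and some passed the filter only through the group in which they were high, so nothing is read from their counts and medians either. With ATRA in shNC cells, 12 of the 28 that passed the filter rose and 3 fell, against 15% and 10.8% of all genes, and 7 and 2 also had an adjusted p under 0.05, against 7.84% and 5.06% (edgeR with Benjamini-Hochberg adjustment). Both these counts and those over all genes moved when single libraries were left out. The median log2 fold change was 0.50, against 0.02 over all genes. Among the partners of the members, COTL1, an actin-binding protein that also binds the 5-lipoxygenase, rose from 133 and 149 CPM to 836 and 851 (log2 fold change 2.61, SE 0.21, edgeR adjusted p = 0.000491). The prostanoid synthases TBXAS1, which makes thromboxane A2, and AKR1C3, which makes prostaglandin F2α, rose by 1.44 (SE 0.21, edgeR adjusted p = 0.00489) and 2.09 (SE 0.42, edgeR adjusted p = 0.0190) on the log2 scale. TBXAS1 stood at 41.2 and 40.7 CPM before and 115 and 102 after ATRA.

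ACSL4, which couples arachidonic acid to coenzyme A, rose by 0.92 (SE 0.23, edgeR adjusted p = 0.0394) on the log2 scale in shNC cells. CYP4F12, MGLL and CBR1 rose from at most 2 counts per library. They were at least 26.8-fold, 17.0-fold and 6.66-fold higher against the floor, and passed the filter through the treated libraries. PTGER4, a receptor of prostaglandin E2, fell from 19.2 and 22.4 CPM to 2.51 and 3.50 (log2 fold change -2.76, SE 0.34, edgeR adjusted p = 0.00261), and so ran opposite to the synthase PTGES. ABCC4, a prostaglandin exporter, fell by 1.07 on the log2 scale (SE 0.28, edgeR adjusted p = 0.0488). The thromboxane receptor TBXA2R passed the thresholds of the study with -0.75 (SE 0.25, edgeR adjusted p = 0.102).

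In shKDM3B cells ATRA gave 7 rises and 5 falls among the 24 pathway genes that passed the filter, against 24% and 18.3% of all genes, with a median of 0.31 against 0.04. COTL1 rose by 2.59 (SE 0.24, edgeR adjusted p = 1.96e-05) on the log2 scale. ACSL4 rose by 0.89 and the leukotriene C4 synthase MGST2 by 0.63, with edgeR adjusted p of 0.000815 and 0.0144. The prostaglandin E synthase PTGES3 passed the test with 0.76 (edgeR adjusted p = 0.000846), but its level went with the share of reads outside genes, at 474 to 686 CPM in the untreated libraries and 515 in shNC_ATRA replicate 1 against 984 in shNC_ATRA replicate 2 and 835 and 857 in shKDM3B_ATRA. CYSLTR1, a receptor of leukotriene C4 and its products, passed it with 1.82 (SE 0.15, edgeR adjusted p = 1.29e-05), from 26.2 and 22.3 CPM to 87.7 and 76.8. It also went with that share, at 31.5 CPM in shNC_ATRA replicate 1, within the 22.3 to 33.1 of the untreated libraries, and 53.2 in replicate 2. AKR1C3 passed the thresholds with 1.12 (SE 0.45, edgeR adjusted p = 0.0655). ALOX12, the platelet 12-lipoxygenase, was 0 in both shKDM3B libraries and had 41 and 45 counts in those of shKDM3B_ATRA, but it also had 0 in shNC_ATRA replicate 1 and 42 in replicate 2, so it too went with that share. PTGER4 fell by 1.88, the glutathione-handling enzymes GGT5 and MGST3 by 1.63 and 1.03, ABCC4 by 1.01 and TBXA2R by 0.72 on the log2 scale, with edgeR adjusted p of 0.00112, 0.00726, 0.00132, 0.00161 and 0.0118.

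**Figure D4:**
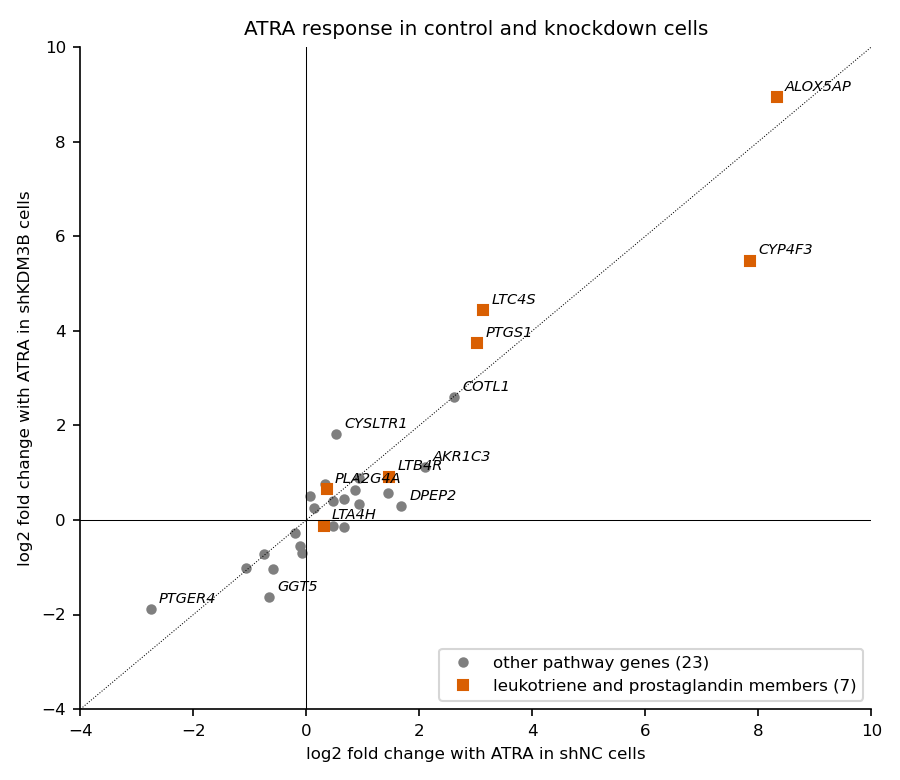
Log2 fold change with ATRA in shNC cells (horizontal axis) and in shKDM3B cells (vertical axis) of 7 members (squares) and 23 other pathway genes (circles) measured in both, with a dotted line of equal change. CYP4F3 lies below the line, with 7.86 against 5.48, and CYSLTR1 above it, with 0.52 against 1.82. CYSLTR1 also went with the share of reads outside genes.

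With the knockdown under ATRA, 1 of the 26 pathway genes passed the thresholds as higher and 7 as lower, against 2.42% and 4.37% of all genes, with a median of -0.12 against 0.03. None had an edgeR adjusted p below 0.502, 8 had an unadjusted p under 0.05 and DESeq2 called 2 at an adjusted p under 0.05. CYSLTR1 was the higher one, with 31.5 and 53.2 CPM in shNC_ATRA and 87.7 and 76.8 in shKDM3B_ATRA (log2 fold change 0.96, SE 0.31, or 0.64, SE 0.15, without shNC_ATRA replicate 1). CYP4F12, a relative of CYP4F3, was lower by a log2 fold change of -2.68 (SE 0.40), from 62 and 39 counts to 5 and 6. AKR1C3 was lower by -1.98 (SE 0.45), MGLL, a lipase that can supply arachidonic acid, by -1.91 (SE 0.48) and DPEP2, which cleaves leukotriene D4, by -1.71 (SE 0.52). The other 3 lower genes were TBXAS1 (-1.04, SE 0.17), COTL1 (-0.63, SE 0.13) and GGT1 (-0.72, SE 0.20). GGT1 shares 56.5% of its exon length with another gene on the same strand, and 20.5% of its 50-base stretches occur on additional hg38 sequences. TBXAS1 stood at 115 and 102 CPM in shNC_ATRA and 47.1 and 58.1 in shKDM3B_ATRA, and like CYP4F12 it passed the thresholds with each of the 4 libraries left out. Without shNC_ATRA replicate 1 the values were -2.63 for CYP4F12, -2.19 for AKR1C3, -2.08 for MGLL, -1.67 for DPEP2, -0.94 for TBXAS1, -0.64 for COTL1 and -0.54 for GGT1, of which GGT1 was no longer called. CYSLTR1, MGLL, DPEP2, COTL1 and GGT1 were not called when either shKDM3B_ATRA library was left out, nor was AKR1C3 without shKDM3B_ATRA replicate 1. Without ATRA, ABCC1, the leukotriene C4 exporter, was higher (0.70, SE 0.24, edgeR adjusted p = 0.339), while COTL1 (-0.60, SE 0.25, edgeR adjusted p = 0.461) and the 15-lipoxygenase gene ALOX15 (-1.73, SE 0.65, edgeR adjusted p = 0.405) were lower, 1 and 2 of 25 against 3.48% and 3.53% of all genes. ABCC1 was not called without shKDM3B replicate 1, nor were COTL1 and ALOX15 without shNC replicate 2. The ALOX15 counts were 12 and 13 in shNC and 2 and 7 in shKDM3B, and 75.4% of the stretches of ABCC1 occur on alternate sequences.

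The ATRA response of pathway genes was also compared between shNC and shKDM3B cells. The share of reads outside genes limits this comparison too, and CYSLTR1 went with it, as given above. At the thresholds of the study, 1 of 29 pathway genes differed upwards and 4 downwards, against 1.27% and 2.72% of all genes. These were CYSLTR1 (1.28, SE 0.36), TBXAS1 (-0.88, SE 0.22), GGT1 (-0.82, SE 0.27), and MGLL and CBR1, whose values rested on groups of few counts. None had an edgeR adjusted p below 1.00, and 5 had an unadjusted p under 0.05, also by DESeq2.

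The genes whose levels ran most like those of 3 members were found by Pearson's r of log2(CPM + 0.5) over the 8 libraries, among 13527 other genes. The 8 points share the strong split between untreated and treated libraries, so these values are a description. CYP4F3 was most like S100A8, SMIM25 and HPD, each with r = 0.994. S100A8, a calcium-binding protein of neutrophils, stood at 1.46 and 0.839 CPM in shNC, 0.462 and 0.337 in shKDM3B, 132 and 152 in shNC_ATRA and 10.6 and 18.1 in shKDM3B_ATRA. Like CYP4F3, it was several-fold lower in both shKDM3B_ATRA libraries than in shNC_ATRA. PTGES was most like IL12RB1 (r = 0.998), LRG1 (r = 0.997) and LSP1 (r = 0.997). ALOX5AP was most like SP110, ARL14EPL and ARHGAP9, each with r = 0.998.

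Markers of other cells were also counted. In the comparison of the treated groups, the mature neutrophil markers summed to 423 to 513 CPM in shNC_ATRA and 260 to 263 in shKDM3B_ATRA, so that their sum was lower in the group in which CYP4F3, ALOX5AP and LTB4R were lower. MPO was higher in that group, at 3128 and 2220 CPM against 730 and 616 in shNC_ATRA, whereas CTSG was lower and ELANE was at 0 in both. Most of the neutrophil sum was CSF3R, at 275 and 242 CPM in shNC_ATRA and 138.5 and 139 in shKDM3B_ATRA, and ITGAM, at 217 and 154 and at 104 and 106, whereas MMP9 was at 1.84 and 1.75 and at 1.16 and 1.71. The 5 monocyte and macrophage markers summed to 29.8 to 34.0 and 9.48 to 13.0 CPM in these groups, with CD163 at 0. Without ATRA, where ALOX5AP and PTGS1 were lower with the knockdown, the neutrophil markers summed to 145 to 146 CPM in shNC and 85.2 to 91.7 in shKDM3B, and the monocyte and macrophage markers to 6.73 to 8.18 and 3.44 to 5.49. The 3 B cell markers summed to 3.65 to 5.12 CPM without ATRA and 13.6 to 24.2 with ATRA, with MS4A1 at 0. The 3 T cell and 4 erythroid markers reached at most 1.57 and 0.737 CPM. The part of these shifts in the member values was not tested. In such bulk libraries, fewer cells that express a gene and less RNA per cell cannot be told apart.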

How the data were processed

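RNA of 8 NB4 libraries was sequenced as paired reads. Per the study's methods and the submitters' processing notes, the authors used Trim Galore for trimming and HISAT2 for alignment to hg38, and deposited HTSeq counts per gene, which are raw whole-number counts without normalization. Tool versions are not given in the sources used here. The files list 56470 names without ATRA and 56609 with ATRA, and the 37526 shared names, holding 96.4% to 99.1% of the counts, were used. Lines for unassigned reads were left out of library sizes.

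Pairs of groups were compared with edgeR 4.0.16 in R 4.3.3 (filterByExpr, TMM, quasi-likelihood test), and the ATRA responses as an interaction over 8 libraries. The standard error is the absolute log2 fold change divided by the square root of F. Genes were called at P under 0.05 and 1.5-fold, and adjusted p-values are Benjamini-Hochberg over all genes of a fit. A fold against a group with at most 3 counts per library is a bound. Gene positions are from GENCODE v44 on hg38. Members are always named, as is each pathway gene called with an adjusted p under 0.05 and up to 4 per direction with the largest change. Others were chosen after their values were seen. Members and lists were chosen with earlier results of these data known. Alternatives were other scalings (DESeq2 size factors, library size, upper quartile), filters (none, or 10 counts in 2 libraries), DESeq2 1.42.0, adjusted p-values, one fit of 8 libraries, a replicate block and leaving out each library. The procedure was tested on simulated data.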

Additional observations from a re-analysis of the deposited data

Results flagged for a closer look

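In 3 of the 21 pathway genes with mean counts of 10 or more in every group, against 3.26% of all 10977 such genes, both knockdown libraries lay on one side of both controls without ATRA and on the other side with ATRA. For CYSLTR1, the cysteinyl leukotriene receptor, the log2 ratio of mean CPM with the knockdown was -0.32 without ATRA and 0.96 with ATRA, and edgeR's interaction over 8 libraries gave 1.28 (SE 0.36, unadjusted p = 0.00906, adjusted p = 1.00). For MGST3, a microsomal glutathione transferase, the ratios were 0.24 and -0.23 (interaction -0.47, SE 0.28, edgeR adjusted p = 1.00). For PTGES2, a prostaglandin E synthase, they were 0.17 and -0.28 (interaction -0.46, SE 0.25, edgeR adjusted p = 1.00). The PTGES2 groups under ATRA parted by 73.15 CPM against 73.31, and they overlapped when only the treated libraries were scaled together. PTGES2 stood at 99.2 and 73.3 CPM in shNC_ATRA and 68.6 and 73.2 in shKDM3B_ATRA. Without shNC_ATRA replicate 1, the log2 fold change of shKDM3B_ATRA against shNC_ATRA was 0.64 for CYSLTR1, -0.09 for MGST3 and -0.04 for PTGES2. None of the 3 interactions passed adjustment.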

How the results depend on the processing

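With 2 libraries per group, counts of calls depended on the setting, and 83 of 408 such counts moved by over 1.5 times, against 325 that did not. Of the member log2 fold changes, 47 moved by more than the spread between replicates and 418 did not. No called member changed direction. The causes were not tested. When 1 library was left out, the share of all genes called moved as well, in each comparison and direction. A group then keeps a single library, so nothing is read from the ranges of called members and pathway genes given below.

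At an adjusted p under 0.05, edgeR called 0 members and 0 pathway genes in either direction with the knockdown, without or with ATRA, and 0 for the difference in ATRA response, where over all genes it called 0 higher and 3 lower without ATRA and 0 otherwise (1411, 1383 and 607 genes at an unadjusted p under 0.05). By DESeq2, 278, 464 and 25 genes had an adjusted p under 0.05. With ATRA in shNC cells edgeR called 7 pathway genes higher, and 975 higher and 629 lower genes in place of 1866 and 1347. For the difference in ATRA response, 1 member was called higher with library size alone, no filter or DESeq2 (PTGS1) and with the replicate block (ALOX5AP). Without a filter, 2 pathway genes were higher with the knockdown under ATRA, and 12 rose and 8 fell with ATRA in shKDM3B cells. DESeq2 and the fit of all 8 libraries each called 1 pathway gene lower with the knockdown without ATRA, and the latter 5 lower with ATRA in shNC cells. PTGES was also called lower under ATRA with library size, upper-quartile scaling, no filter, all 8 libraries in one fit and the block. Over all genes, the fit of 8 libraries called 313 higher in place of 482, and no filter 737 lower in place of 489, both without ATRA, and no filter 366 and 575 in place of 172 and 368 for the difference in response.

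Leaving out 1 library, members called lower with the knockdown ranged from 1 to 2 without ATRA and from 1 to 5 with ATRA, where 0 to 1 were higher. With ATRA in shKDM3B cells, 6 to 7 members were higher, PLA2G4A being lost without shKDM3B replicate 2 or shKDM3B_ATRA replicate 1. For the difference in response 0 to 2 were higher and 1 to 2 lower. Pathway genes ranged from 0 to 2 higher and 0 to 2 lower with the knockdown, 0 to 6 and 2 to 8 with the knockdown under ATRA (extremes without shNC_ATRA replicate 2 and shKDM3B_ATRA replicate 1), 5 to 16 and 1 to 4 with ATRA in shNC cells, 6 to 9 and 4 to 7 with ATRA in shKDM3B cells, and 1 to 3 and 3 to 6 for the difference. All genes called with the knockdown under ATRA ranged from 40 to 3409 higher and 94 to 1951 lower.

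Same-numbered libraries share only a number. Their deviations from the group means correlated with r = 0.423 between shNC and shKDM3B and 0.0450 between shNC_ATRA and shKDM3B_ATRA. The values were -0.0884 between shNC and shNC_ATRA and 0.207 between shKDM3B and shKDM3B_ATRA. The replicate block called 0 pathway genes higher and 4 lower, and 179 and 346 genes in place of 345 and 624, with the knockdown under ATRA.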
